A study of Mus musculus with 12 samples.

Results

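The high-affinity receptor for IgE and the signalling proteins closest to it were followed through basophil maturation as 10 genes. They are the receptor subunits Fcer1a, Ms4a2 and Fcer1g, the Src family kinases Lyn and Fyn, the tyrosine kinase Syk, the adaptors Lat and Lcp2, the kinase Btk and the phosphatase Inpp5d. They were taken by symbol. All 10 were among the 31301 gene symbols of the count table, and all 10 were among the 10861 genes with enough counts to be tested.

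Marrow of C57BL/6J wild-type mice was cultured for 7 days, and the basophils that grew out were sequenced. Cultures received IL-3 (interleukin-3) at 0.3 ng/mL, or the epithelial cytokine TSLP (thymic stromal lymphopoietin) at 1 µg/mL, a dose for which the labels differ in the unit. Cells of each kind of culture were sorted into a FcεRIαhi CD49blo fraction, the immature cells or pre-basophils, and a FcεRIαlo CD49bhi fraction, the mature basophils. The study's text splits the cultured cells this way after a gate on CD200R3+ c-Kit- cells, whereas the labels give only FcεRIα and CD49b. Cytokine and stage gave 4 groups with 3 libraries each, and all 12 shared genotype and culture time. The cells came from cytokine-driven culture and not from an animal, and the labels do not tie a library to an animal. The p-values therefore measure the spread between these libraries, which may be partly technical. FcεRIα is the protein product of Fcer1a, so the sort itself used the protein of 1 of the 10 genes, and stage differences in Fcer1a RNA stand beside a gate set on its protein.

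IgE bound to FcεRI arms basophils and mast cells, and antigen that bridges bound IgE sets off their release of mediators and cytokines. The receptor is built from an α chain (Fcer1a) that binds IgE, a β chain (Ms4a2) that amplifies the signal and a dimer of γ chains (Fcer1g) that several other receptors also use. Lyn phosphorylates the β and γ chains, Syk docks on the phosphorylated γ chain, and Syk in turn phosphorylates the adaptors LAT and SLP-76 (Lcp2), on which Btk and phospholipase Cγ meet. Fyn feeds a parallel branch towards PI3 kinase, and the inositol phosphatase SHIP-1 (Inpp5d) restrains the response.

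The sequences upstream of the receptor subunit genes are shown because Fcer1a and Ms4a2 moved together in the IL-3 cultures while Fcer1g moved the other way. That of Lcp2 is shown beside them because it holds as many matches as that of Ms4a2, while the change of its RNA was opposite. Each is the 250 bases before the RefSeq transcription start on GRCm38.p6, read 5′ to 3′ on the gene's strand. Capitals mark matches on either strand to AGATAA, its variant AGATAG, the form TGATAA or its variant TGATAG, which belong to the motif that GATA factors read. These forms do not overlap each other in the windows shown. The Fcer1a window is chr1:173227230-173227479 (minus strand), the Ms4a2 window chr19:11623720-11623969 (minus), the Fcer1g window chr1:171234350-171234599 (minus) and the Lcp2 window chr11:34046678-34046927 (plus).
Fcer1a: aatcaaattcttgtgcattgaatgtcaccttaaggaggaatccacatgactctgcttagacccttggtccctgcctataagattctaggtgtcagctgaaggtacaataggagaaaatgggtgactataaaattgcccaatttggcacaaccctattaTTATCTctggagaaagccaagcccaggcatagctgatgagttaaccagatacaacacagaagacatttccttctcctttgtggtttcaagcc
Ms4a2: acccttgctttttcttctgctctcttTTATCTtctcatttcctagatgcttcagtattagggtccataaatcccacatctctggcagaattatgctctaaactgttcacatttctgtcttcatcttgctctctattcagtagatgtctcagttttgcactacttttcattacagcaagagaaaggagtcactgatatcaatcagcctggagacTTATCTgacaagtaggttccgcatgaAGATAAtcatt
Fcer1g: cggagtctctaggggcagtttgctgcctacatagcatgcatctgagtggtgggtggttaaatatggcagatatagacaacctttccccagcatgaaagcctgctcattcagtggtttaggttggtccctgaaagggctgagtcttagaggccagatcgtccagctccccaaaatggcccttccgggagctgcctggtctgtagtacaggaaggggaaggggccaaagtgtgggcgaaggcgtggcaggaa
Lcp2: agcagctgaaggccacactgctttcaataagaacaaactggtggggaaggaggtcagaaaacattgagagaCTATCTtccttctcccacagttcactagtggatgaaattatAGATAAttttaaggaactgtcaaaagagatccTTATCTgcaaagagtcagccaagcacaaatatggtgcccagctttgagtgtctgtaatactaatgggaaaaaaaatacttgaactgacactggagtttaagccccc
The Fcer1a window held 1 match, 87 to 92 bases before the start. The Ms4a2 window held 3, of which the nearest lay 6 to 11 bases before the start, the Fcer1g window held 0 and the Lcp2 window held 3. Of 32851 RefSeq windows of the same length, 26.5% held at least 1 match. A match is a string of letters and not a shown binding site. The windows of Fyn and Inpp5d held 1 match each, and those of Btk and Lat held 0. Of the windows of Syk, which has 2 starts in the RefSeq table, 1 held a match. Lyn had no entry there.

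Library totals ran from 1720065 to 3685285 counts, and the 10 genes had between 98 counts (Lyn) and 6592 counts (Fcer1a) in a library. Levels are given as CPM (counts divided by library size and put on a common scale), with library sizes adjusted by TMM (trimmed mean of M values), and replicates as library 1, 2 and 3. The cells carried basophil genes, with a summed level of 7646 to 42047 CPM for 8 basophil markers. Mast cell markers, which share FcεRI, summed to at most 8.9 CPM, and Tpsab1, Mcpt1 and Mrgprb2 were at 0 in all 12 libraries. Monocyte and macrophage markers (8 genes, all detected in every group) had a higher sum in mature cells. It was 599 to 744 CPM in IL-3 mature against 95 to 129 CPM in IL-3 immature libraries. With TSLP it was 491 to 771 CPM in mature against 208 to 246 CPM in immature libraries. By gene, C1qa overlapped between IL-3 stages (0.993 to 8.25 CPM in immature, 0.451 to 3.56 CPM in mature libraries). Between TSLP stages Cx3cr1 and Ms4a6c overlapped, and Ccr2 differed little (98.1 to 110 CPM in immature, 114 to 124 CPM in mature libraries). The other genes of this list were higher in every mature than in every immature library of the same culture. Monocytes also use Fcer1g, Lyn, Syk, Btk and Inpp5d, and the part of such cells in the differences below was not tested. The cells had been sorted on FcεRIα and CD49b, in the study's text within a CD200R3+ c-Kit- gate that the labels do not give. B lineage markers (8 genes) were higher in every TSLP library, at 34.8 to 41.9 CPM in TSLP immature against 6.00 to 7.28 CPM in IL-3 immature, and at 20.1 CPM or more in TSLP mature against 2.14 to 2.91 CPM in IL-3 mature libraries. B cells also use Syk, Lyn, Btk and Inpp5d, and their part in the cytokine differences was not tested. TSLP mature library 1 stood apart: its neutrophil markers (8 genes) summed to 791 CPM against 44.3 and 48.5 CPM in the other two, and its B lineage markers to 175 CPM against 20.1 and 21.8 CPM. Where leaving it out changed a call among the 10 genes, both values are given, and counts over gene lists are given with and without it. Bulk libraries cannot tell fewer cells of a type from less RNA per cell.

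Within FcεRI, immature cells of the IL-3 cultures held more α and β chain RNA and less γ chain RNA than mature cells. Fcer1a (GRCm38 chromosome 1, 173221284 to 173227214, minus strand) measured 1599, 1614 and 1584 CPM in the IL-3 immature libraries and 1267, 937 and 865 CPM in the IL-3 mature libraries. The TSLP immature libraries gave 1262, 1222 and 1529.7 CPM and the TSLP mature libraries 1779, 871 and 1141 CPM. The IL-3 groups did not overlap, whereas the TSLP groups did, because TSLP mature library 1 was the highest of all 12. Fcer1a was 1.56-fold higher in immature than in mature cells of the IL-3 cultures (log2 difference, immature minus mature throughout, 0.64, SE 0.24, adjusted p = 0.0355). Here and below, adjusted p is from the edgeR quasi-likelihood test with Benjamini-Hochberg adjustment over the 10861 genes, and a gene is called at an adjusted p under 0.05. Leaving out any IL-3 immature library, or IL-3 mature library 2 or 3, ended this call, with adjusted p of up to 0.112 and log2 differences of 0.58 to 0.82. With TSLP the difference was 0.08 (95% interval -0.42 to 0.58, adjusted p = 0.835). Without TSLP mature library 1 it was 0.50 (adjusted p = 0.048).

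Ms4a2, the β chain (chromosome 19, 11615523 to 11623719, minus strand), showed the same order with less spread. Its levels were 1194, 1285 and 1054 CPM in IL-3 immature and 836, 703 and 667 CPM in IL-3 mature libraries. TSLP immature libraries held 1001, 973 and 1125 CPM and TSLP mature libraries 691, 763 and 719 CPM. In both cultures every immature library lay above every mature library. The difference was 1.60-fold in IL-3 cultures (log2 0.68, SE 0.17, adjusted p = 0.00365) and 1.43-fold in TSLP cultures (log2 0.51, SE 0.17, adjusted p = 0.035). The IL-3 call held when any of the 12 libraries was left out. The TSLP call was lost without TSLP immature library 1 or 3 or TSLP mature library 3, where adjusted p reached 0.0546 and the log2 difference stayed at or above 0.51.

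Fcer1g, the γ chain (chromosome 1, 171229572 to 171234365, minus strand), went the opposite way in IL-3 cultures. It measured 508, 778 and 735 CPM in IL-3 immature and 1176, 1092 and 1096 CPM in IL-3 mature libraries. TSLP immature libraries gave 765, 860.0 and 639 CPM, and TSLP mature libraries spread widely at 1332, 771 and 468 CPM. The IL-3 groups did not overlap, and the TSLP mature libraries lay on both sides of the TSLP immature ones. Fcer1g was 1.66-fold higher in mature cells of the IL-3 cultures (log2 -0.73, SE 0.29, adjusted p = 0.0467). This call held in 2 of 12 runs that left out 1 library, those without TSLP mature library 1 or 3. The log2 difference ran from -0.80 to -0.54 over the 12 runs and adjusted p reached 0.191. Of 9 other settings, 3 kept the call. In the TSLP cultures the log2 difference was -0.18 (95% interval -0.79 to 0.42, adjusted p = 0.685), and it was 0.38 without TSLP mature library 1 (adjusted p = 0.219). Neutrophils also carry Fcer1g, and in that library the raised neutrophil markers and the highest Fcer1g level of the series occurred together. In the IL-3 cultures neutrophil markers summed to 160 to 191 CPM in immature and 221 to 316 CPM in mature libraries. That sum holds Lcn2, which was lower in IL-3 mature libraries (20.3 to 25.6 against 92.2 to 120 CPM). S100a9 was higher there (98.7 to 132 against 18.2 to 40.8 CPM). The part of neutrophils in the Fcer1g values of either culture was not tested.

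**Figure D1:**
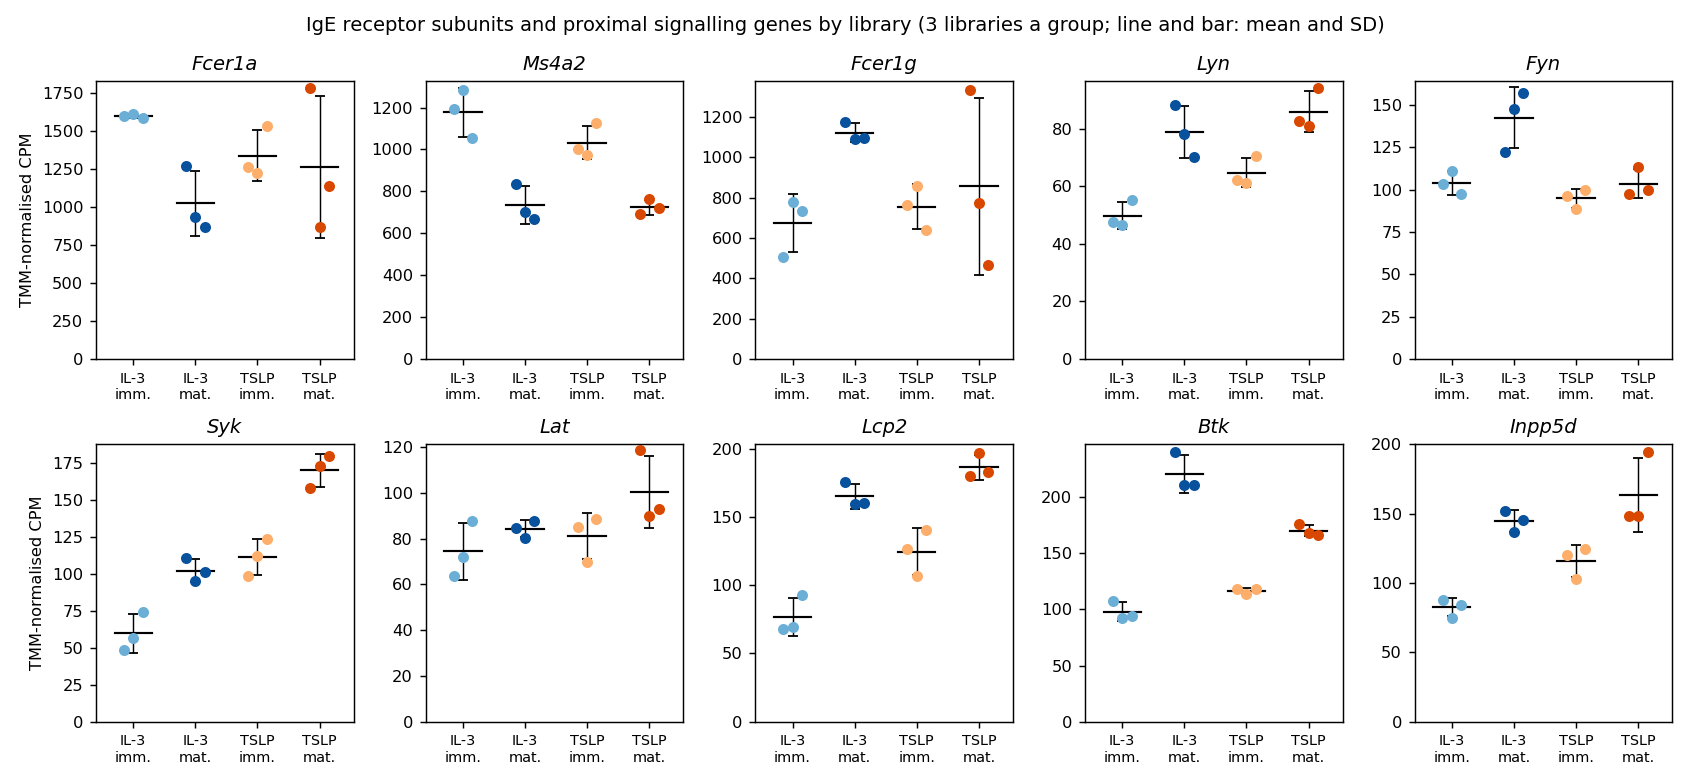
Levels of the 10 genes in TMM-normalised CPM (vertical axes from 0) in the 12 libraries, with 3 points for each of the 4 groups (imm., immature; mat., mature), a line at the mean and a bar of 1 SD. Ms4a2 lay higher in immature than in mature libraries of both cultures, while Syk, Lcp2, Btk and Inpp5d lay lower, and TSLP mature library 1 gave the highest Fcer1a (1779 CPM) and Fcer1g (1332 CPM) values.

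Per kilobase of annotated exon, the receptor subunits were the 3 most abundant of the 10 genes in every group. Fcer1a reached 1602 ± 15.1 CPM per kilobase (SD, n = 3) in IL-3 immature and 1341 ± 168 in TSLP immature cells, above Fcer1g at 771 ± 166 and 864 ± 127 and Ms4a2 at 419 ± 41.4 and 367 ± 28.7. The order of Fcer1g and Ms4a2 rests on the division by length. Undivided, Ms4a2 had the higher mean in IL-3 immature (1178 against 674 CPM) and TSLP immature cells (1033 against 755 CPM). In IL-3 mature cells Fcer1g (1283 ± 53.8 CPM per kilobase) had the higher mean and Fcer1a was at 1025 ± 215. In TSLP mature cells the means of Fcer1a (1266 ± 467) and Fcer1g (981 ± 502) lay within their spread. The 7 signalling genes ranged from 6.39 (Syk, IL-3 immature) to 70 CPM per kilobase (Btk, IL-3 mature). Their order depended on whether all annotated exons or the longest coding transcript set the length, so none is given.

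Among the Src family kinases, Lyn was lower in immature cells and Fyn less clearly so. Lyn (chromosome 4, 3678115 to 3813122, plus strand) measured 47.5, 46.6 and 55.3 CPM in IL-3 immature and 88.3, 78.3 and 70.4 CPM in IL-3 mature libraries. TSLP immature libraries gave 62.2, 61.3 and 70.5 CPM and TSLP mature libraries 82.8, 80.9 and 94.2 CPM. Neither pair of stages overlapped. Lyn was 1.59-fold higher in mature cells of the IL-3 cultures (log2 -0.67, SE 0.16, adjusted p = 0.00344), a call that held without any 1 library. With TSLP the log2 difference was -0.41 (SE 0.16, adjusted p = 0.073), short of the threshold. Of the 50-base stretches of the Lyn exons, 18.3% also occur in Gm11787 or Gm26857, and Gm26857 overlaps Lyn exons on the opposite strand, so part of the Lyn count cannot be assigned with certainty.

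Fyn (chromosome 10, 39368855 to 39565381, plus strand) stood out by its IL-3 mature libraries, at 123, 148 and 157 CPM. The IL-3 immature libraries gave 103, 111 and 97.3 CPM, the TSLP immature libraries 96.5, 88.7 and 99.8 CPM and the TSLP mature libraries 97.4, 113 and 99.7 CPM. Every IL-3 mature library was above the other 9 libraries, which overlapped across their groups. The stage difference was called in the IL-3 cultures (1.37-fold higher in mature, log2 -0.45, SE 0.16, adjusted p = 0.0276). That call held in 3 of 12 runs with 1 library left out (without IL-3 mature library 1, TSLP mature library 1 or TSLP mature library 2), with adjusted p of up to 0.14, and in 4 of 9 other settings. In the TSLP cultures the log2 difference was -0.12 (95% interval -0.46 to 0.21, adjusted p = 0.62).

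Syk changed with both stage and cytokine. The gene (chromosome 13, 52583173 to 52648792, plus strand) gave 48.5, 56.8 and 74.2 CPM in IL-3 immature and 110.4, 95.1 and 101 CPM in IL-3 mature libraries. It gave 98.6, 112 and 123 CPM in TSLP immature and 158, 172 and 179.7 CPM in TSLP mature libraries. IL-3 immature libraries were lowest, TSLP mature libraries were highest, and the IL-3 mature and TSLP immature libraries overlapped between them. Syk was 1.70-fold higher in mature cells of the IL-3 cultures (log2 -0.77, SE 0.18, adjusted p = 0.00245) and 1.53-fold higher in those of the TSLP cultures (log2 -0.61, SE 0.18, adjusted p = 0.0174). The IL-3 call held without any 1 library. The TSLP call was lost without TSLP immature library 1 or 2 or TSLP mature library 2 or 3 (adjusted p of up to 0.13, log2 differences of -0.61 to -0.47).

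The adaptors differed from each other. Lat (chromosome 7, 126363824 to 126369570, minus strand), the membrane scaffold, measured 63.6, 72.0 and 87.7 CPM in the immature and 84.8, 80.5 and 87.9 CPM in the mature libraries of IL-3 cultures. With TSLP the immature libraries gave 85.1, 69.9 and 88.5 CPM and the mature ones 119, 89.9 and 92.9 CPM. The stages overlapped with IL-3, and with TSLP the mature libraries lay just above the immature ones. It was called in no comparison, with log2 stage differences of -0.18 (95% interval -0.56 to 0.20, adjusted p = 0.44) in IL-3 and -0.31 (-0.68 to 0.07, adjusted p = 0.224) in TSLP cultures. These intervals leave room for changes of the size seen in Fyn.

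Lcp2 (chromosome 11, 34046920 to 34092295, plus strand), which encodes SLP-76, gave 67.9, 69.7 and 93.0 CPM in IL-3 immature and 175, 159.6 and 160.1 CPM in IL-3 mature libraries. In TSLP cultures it gave 126, 107 and 141 CPM in immature and 179.7, 197 and 183 CPM in mature libraries. Stages did not overlap in either culture. Lcp2 was 2.14-fold higher in IL-3 mature cells (log2 -1.10, SE 0.17, adjusted p = 8.55e-05), a call that held without any 1 library, and 1.50-fold higher in TSLP mature cells (log2 -0.58, SE 0.17, adjusted p = 0.0197). The TSLP call was lost without TSLP immature library 1 or 2 or TSLP mature library 2 or 3 (adjusted p of up to 0.157). The non-coding gene 4930469K13Rik overlaps Lcp2 exons on the opposite strand, and 4.74% of 50-base stretches of Lcp2 recur in other genes.

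Btk, the Tec family kinase that joins the SLP-76 complex (chromosome X, 134542336 to 134583570, minus strand), had the largest stage difference of the 10 genes in the IL-3 cultures. Its levels were 108, 92.6 and 94.0 CPM in IL-3 immature and 240.1, 211 and 211 CPM in IL-3 mature libraries. TSLP immature libraries gave 118, 114 and 118 CPM, and TSLP mature libraries gave 176, 168 and 166 CPM. All 4 groups were separate from each other. The difference was 2.25-fold in the IL-3 cultures (log2 -1.17, SE 0.15, adjusted p = 1.15e-05), a call that held without any 1 library, and 1.46-fold in the TSLP cultures (log2 -0.54, SE 0.15, adjusted p = 0.0141). The TSLP call was lost without any of the TSLP immature libraries or without TSLP mature library 2 or 3 (adjusted p of up to 0.0974).

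Inpp5d, the phosphatase SHIP-1 (chromosome 1, 87620312 to 87720507, plus strand), was higher in mature cells, as Syk and Btk were. It measured 87.8, 75.1 and 84.4 CPM in IL-3 immature and 152, 137 and 145 CPM in IL-3 mature libraries. TSLP immature libraries gave 120.3, 103 and 125 CPM and TSLP mature libraries 148, 148 and 194 CPM. Mature libraries lay above immature libraries in each culture. The difference was 1.76-fold in IL-3 cultures (log2 -0.81, SE 0.17, adjusted p = 0.000917) and 1.41-fold in TSLP cultures (log2 -0.50, SE 0.17, adjusted p = 0.0374). The IL-3 call held without any 1 library. The TSLP call held in 2 of 12 such runs, without TSLP mature library 1 or IL-3 mature library 1, and in 4 of 9 other settings, and adjusted p reached 0.265.

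**Figure D2:**
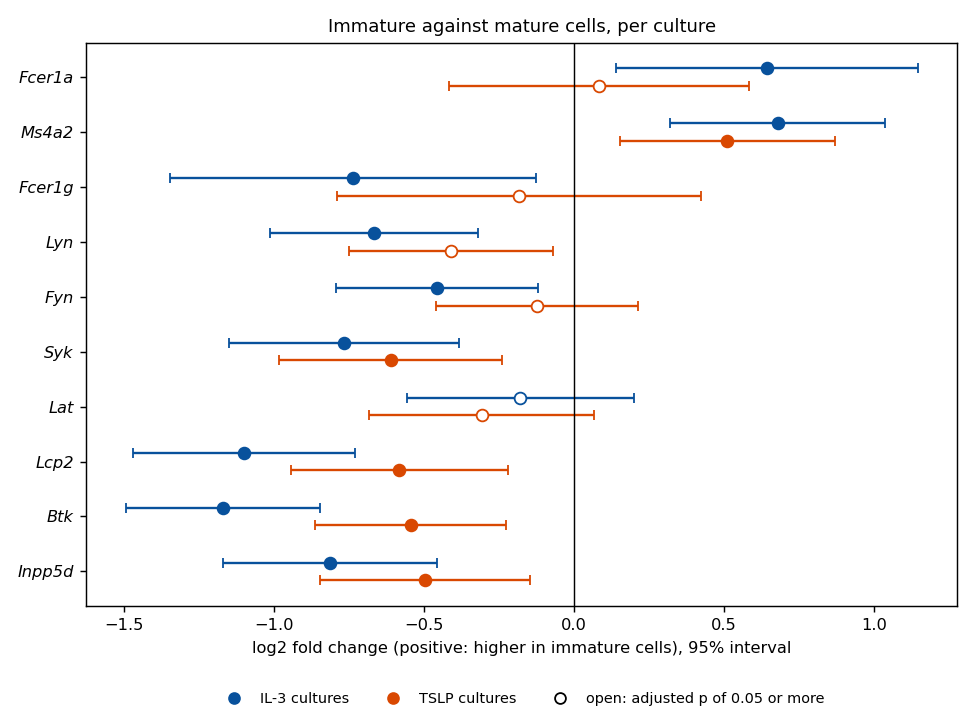
Log2 fold change from mature to immature cells for the 10 genes (positive values, higher in immature cells) with 95% intervals, in IL-3 cultures (blue) and TSLP cultures (orange). Filled points have an adjusted p under 0.05: 9 of 10 genes in IL-3 cultures (46.2% of all tested genes) and 5 of 10 in TSLP cultures (25.1% of all tested genes).

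Counted together, 9 of the 10 genes were called between stages in the IL-3 cultures, where 46.2% of all tested genes were called. Of these, 2 were higher in immature cells (Fcer1a and Ms4a2, background 22.1%) and 7 were higher in mature cells (background 24.1%). The libraries of the 2 stages did not overlap for 9 genes (background 57.8%). In the TSLP cultures 5 genes were called (background 25.1%), of which Ms4a2 was higher in immature cells (background 12.2%) and Syk, Lcp2, Btk and Inpp5d were higher in mature cells (background 12.9%). Libraries did not overlap for 7 genes (background 38.3%). The 5 genes called in TSLP cultures were called with the same direction in IL-3 cultures, as were 21.6% of all tested genes. The 10 genes had a median log2 difference of -0.70 with IL-3 and -0.36 with TSLP, against -0.06 and -0.03 over all tested genes. Without TSLP mature library 1 the counts were 9 and 6, while those over all tested genes rose from 5020 and 2731 to 5676 and 3456. Without a filter on low counts 0 of the 10 genes were called in the TSLP cultures.

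Whether maturation differed between the cultures was asked by the interaction of stage and cytokine. The edgeR test called 0 of the 10 genes (background 4.19%), 2 had an unadjusted p under 0.05, and DESeq2 also called 0. The log2 difference was smaller in size in TSLP than in IL-3 cultures for Btk by 0.63 (SE 0.21, adjusted p = 0.116) and for Lcp2 by 0.52 (SE 0.24, adjusted p = 0.267). Without TSLP mature library 1, Btk (0.70, adjusted p = 0.047) and Fcer1g (1.07, adjusted p = 0.046) passed the threshold. Over all tested genes 723 were called in that run, against 455 with every library. The larger number of calls in the IL-3 cultures is therefore not by itself a tested difference between the cytokines for these genes.

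Between cytokines, Syk was the gene that differed at both stages. Within immature cells it was 1.85-fold higher with TSLP (log2 difference, TSLP minus IL-3 throughout, 0.89, SE 0.18, adjusted p = 0.00454), and this held without any 1 library. Within mature cells it was 1.66-fold higher (log2 0.73, SE 0.18, adjusted p = 0.00784), and the call was lost only without IL-3 mature library 2 (adjusted p = 0.0522). B lineage markers were higher in TSLP libraries at both stages, as given above, and their part in the Syk values was not tested. Lcp2 was 1.62-fold higher with TSLP in immature cells (log2 0.69, SE 0.17, adjusted p = 0.016), which was lost without IL-3 immature library 1 or 2 or TSLP immature library 1 or 3 (adjusted p of up to 0.0929). In mature cells its log2 difference was 0.18 (adjusted p = 0.484). Fyn was 1.38-fold lower with TSLP in mature cells (log2 -0.46, SE 0.16, adjusted p = 0.0436). That call was lost without IL-3 mature library 2 or 3 or TSLP mature library 3, where adjusted p reached 0.0943.

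The other genes were not called between cytokines. Inpp5d in immature cells came near (log2 0.49, SE 0.17, adjusted p = 0.0619), with all 3 TSLP libraries above the IL-3 libraries, and so did Btk in mature cells (log2 -0.37, SE 0.15, adjusted p = 0.0781), with all 3 TSLP libraries below. Btk passed in 3 of 12 runs with 1 library left out (without IL-3 immature library 1 or 3 or TSLP mature library 1). It also passed in 3 of 9 other settings. Inpp5d passed in 1 of 12 such runs and in 2 of 9 other settings. Without TSLP mature library 1 both passed, Inpp5d at an adjusted p of 0.0359 and Btk at 0.0238. So did Fcer1g in mature cells in that run (log2 -0.94, adjusted p = 0.00689). Neutrophil markers summed to 221 to 316 CPM in IL-3 mature libraries against 44.3 and 48.5 CPM in the 2 remaining TSLP mature libraries, and their part in that Fcer1g value was not tested. With that library Fcer1g gave -0.39 (SE 0.29, adjusted p = 0.35). Ms4a2 differed by -0.19 (95% interval -0.55 to 0.17) in immature and -0.02 (-0.38 to 0.34) in mature cells. Fcer1a differed by -0.26 (-0.76 to 0.24) in immature and 0.30 (-0.20 to 0.81) in mature cells, and by -0.11 in mature cells without TSLP mature library 1.

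In all, 2 of the 10 genes were called between cytokines in immature cells (background 13.3%) and 2 in mature cells (background 24.3%), with 1 gene, Syk, called at both stages in the same direction (background 5.9%). Libraries did not overlap for 6 genes in immature cells (background 38.0%) and for 5 in mature cells (background 38.6%). Without TSLP mature library 1 the counts called were 3 and 4. Over all tested genes the counts in immature and mature cells also rose in that run, from 1443 and 2634 to 2243 and 2968. The cytokine comparisons share their libraries with the stage comparisons. Ribosomal RNA rows took 14.7% to 25.0% of counts in IL-3 libraries. They took 17.3% in TSLP mature library 1 and 31.5% to 40.1% in the other TSLP libraries. With those rows left out, Syk was called in the same 4 comparisons. In that run the stage calls of Fcer1g with IL-3 and of Inpp5d with TSLP were lost. Btk was then called between cytokines in mature cells.

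**Figure D3:**
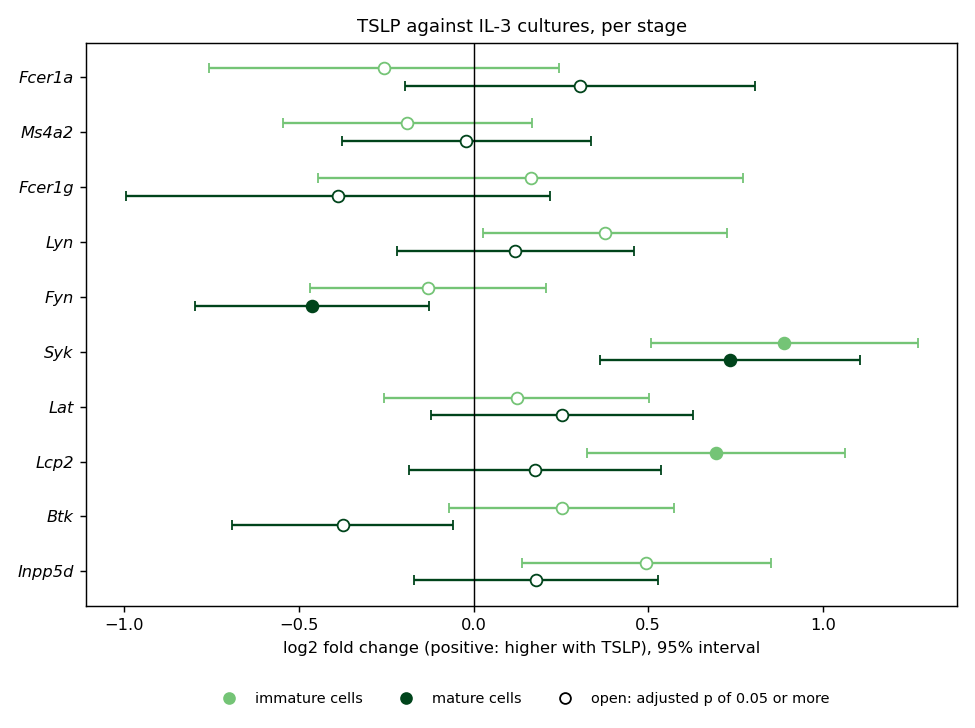
Log2 fold change between TSLP and IL-3 cultures for the 10 genes (positive values, higher with TSLP) with 95% intervals, in immature cells (light green) and mature cells (dark green). Syk was called at both stages, Lcp2 was called in immature cells and Fyn, lower with TSLP, in mature cells, and open points have an adjusted p of 0.05 or more.

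Ratios of counts within a library do not depend on how libraries are scaled, and 4 were examined for stage and for cytokine (8 tests, exact permutation within strata, two-sided, 400 arrangements, smallest possible p 0.005). The ratio of Lyn to Fyn, the Src kinases that act on different branches, was 0.46, 0.419 and 0.568 in the immature and 0.721, 0.53 and 0.447 in the mature libraries of IL-3 cultures. With TSLP it was 0.645, 0.692 and 0.706 in the immature and 0.85, 0.714 and 0.944 in the mature libraries. It was 1.46-fold higher in TSLP than in IL-3 cultures (log2 0.55, exact permutation p = 0.01, adjusted over 8 tests 0.04), and by stratum the difference was 0.51 in immature and 0.58 in mature cells. The ratio of Inpp5d to Syk was 1.81, 1.32 and 1.14 in the immature and 1.38, 1.44 and 1.44 in the mature libraries of IL-3 cultures. With TSLP it was 1.22, 0.92 and 1.01 in the immature and 0.938, 0.86 and 1.08 in the mature libraries. It was 1.41-fold lower in TSLP cultures (log2 -0.49, exact permutation p = 0.01, adjusted 0.04). Each of these calls held in 3 of 12 runs that left out 1 library, a design with fewer arrangements, and was lost in the others (adjusted exact permutation p of up to 0.08). The Lyn to Fyn call held without IL-3 immature library 3, IL-3 mature library 1 or TSLP mature library 2, and the Inpp5d to Syk call without IL-3 immature library 3 or TSLP mature library 2 or 3. Without TSLP mature library 1 the adjusted exact permutation p of either ratio was 0.08, and the differences were 0.54 and -0.49.

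Within the receptor, the ratio of Ms4a2 to Fcer1a counts lay between 0.66 and 0.796 in 9 libraries of the IL-3 immature, IL-3 mature and TSLP immature groups. It was 0.388, 0.877 and 0.63 in the TSLP mature libraries, which straddled that range. No stage (log2 0.19, exact permutation p = 0.34) or cytokine difference (log2 -0.10, p = 0.725) passed. The ratio of Fcer1g to Fcer1a was 0.318, 0.482 and 0.464 in IL-3 immature and 0.928, 1.17 and 1.27 in IL-3 mature libraries, a difference of -1.42 on the log2 scale. In TSLP immature libraries it was 0.606, 0.704 and 0.418 and in TSLP mature libraries 0.749, 0.886 and 0.41, a difference of -0.20. Over both cultures the stage difference was -0.81 (exact permutation p = 0.03, adjusted 0.08), short of the threshold.

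**Figure D4:**
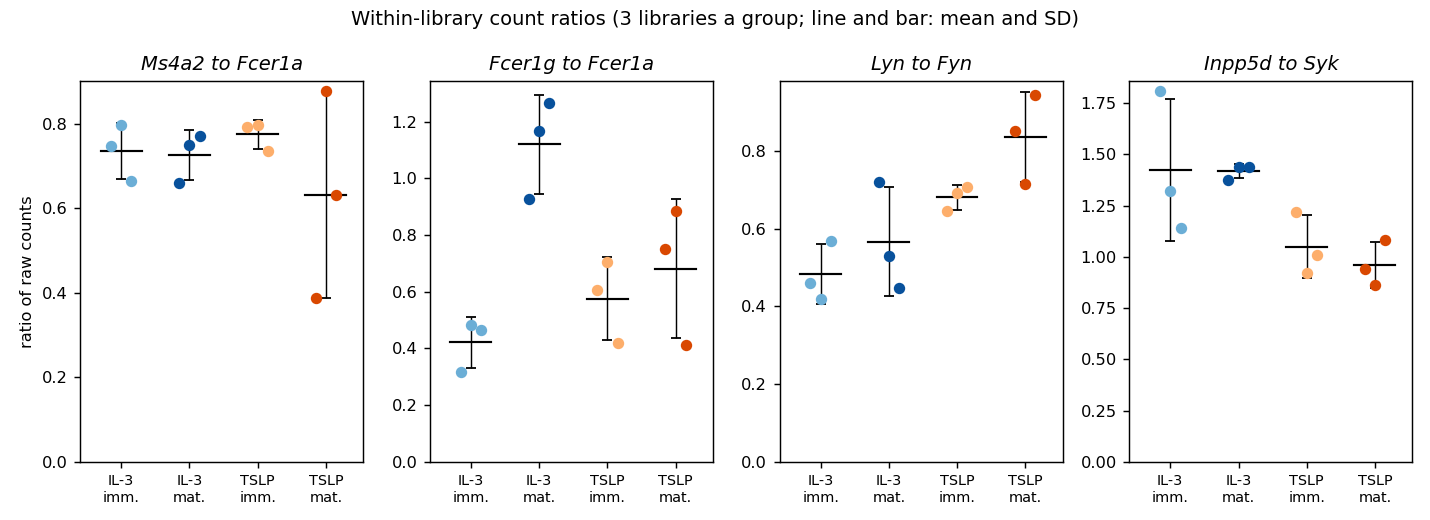
Within-library ratios of raw counts (vertical axes from 0) for 4 pairs of genes, with 3 libraries a group, a line at the mean and a bar of 1 SD (imm., immature; mat., mature). Lyn to Fyn was higher and Inpp5d to Syk was lower in TSLP libraries on average, and Fcer1g to Fcer1a separated the stages in IL-3 cultures.

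The genes most like each receptor subunit were ranked by Pearson's r of log2 CPM over the 12 libraries, among 7549 genes whose mean was 10 CPM or more. The libraries form 4 groups and share their stage and cytokine, so r is a description. For Fcer1a they were A430005L14Rik (0.95), Lxn (0.94), Skp1a (0.94), Psma6 (0.93) and Ppib (0.93). For Ms4a2 they were Baz1b, Cntln, Spc25, Zwilch and C330027C09Rik (each 0.96). For Fcer1g they were Cyba (0.95), Pglyrp1 (0.94), Supt4a (0.91), Hvcn1 (0.90) and Fis1 (0.90). No receptor subunit was in the list of another, and Fcer1a with Ms4a2 gave 0.63, or 0.91 without TSLP mature library 1.

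The wider pathway was read from 9 role lists of 155 other genes, of which 154 were in the table, 135 were tested and 19 fell below the count filter. Between stages in the IL-3 cultures 78 of the 135 were called (57.8%, background 46.2%), 68 of them higher in mature and 10 in immature cells. With TSLP 41 were called (30.4%, background 25.1%), 35 and 6. The TSLP count fell to 21, 23 and 27 without TSLP immature library 1, 2 and 3. Leaving out TSLP mature library 1 gave counts of 85 with IL-3 (73 and 12) and 46 with TSLP (37 and 9). Over all tested genes that run called 5676 and 3456, against 5020 and 2731 with every library. Of the calls picked by the rule for named genes, it kept 27 of 27 with IL-3 and 22 of 26 with TSLP. Between cytokines it kept 19 of 19 in immature and 15 of 20 in mature cells. Each call given below for a single gene of these lists was one that was kept. The median log2 stage difference of these genes was -0.55 with IL-3 and -0.34 with TSLP. The lists were chosen with results of these libraries known.

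Of 7 tested γ chain partners and other activating receptors, 5 (71.4%, background 46.2%) were called in IL-3 cultures, all higher in mature cells. With TSLP 3 (42.9%, background 25.1%) were called, of which 2 were higher in mature cells and Clec4e in immature cells. The counts were 6 and 3 with TSLP mature library 1 left out. Tyrobp, the DAP12 adaptor chain, averaged 2659 ± 110 CPM (SD, n = 3) in IL-3 mature and 867 ± 169 in IL-3 immature cells (log2 -1.62, adjusted p = 0.000677), but 1073 ± 525 in TSLP mature (1601, 1066 and 551 CPM in libraries 1, 2 and 3) and 969 ± 325 in TSLP immature cells. Of 12 tested inhibitory receptors and receptor modulators, 9 were higher in mature and 1 was higher in immature cells of the IL-3 cultures. In the TSLP cultures 6 and 1 were. The shares called were 83.3% with IL-3 (background 46.2%) and 58.3% with TSLP (background 25.1%). With that library left out the TSLP counts were 5 and 1. Pirb, an inhibitory receptor for MHC class I, rose from 11 ± 1.29 CPM in IL-3 immature to 187 ± 29.9 CPM in IL-3 mature cells (log2 -4.07, adjusted p = 2.52e-09). Reads of Pirb and the activating Pira2 (log2 -3.42) can be hard to separate, since they belong to a family of near-identical genes. Cd300lf averaged 12.5 ± 2.53 and 134 ± 13.8 CPM in the same groups (log2 -3.42, adjusted p = 3.70e-09). The exception was Clec12a, higher in immature cells in both cultures (log2 5.33 and 4.54).

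Among 12 tested Src and Tec family kinases and their regulators, 8 (66.7%, background 46.2%) were called in IL-3 cultures. In TSLP cultures 6 (50%, background 25.1%) were called. All were higher in mature cells. The TSLP count was 7 when TSLP mature library 1 was left out. Pag1, the membrane anchor of the Src-inhibiting kinase Csk, averaged 26.3 ± 3.56 CPM in IL-3 immature and 214 ± 58.1 CPM in IL-3 mature cells (log2 -3.01, adjusted p = 4.10e-07). Ptprc (CD45), the phosphatase that primes Src kinases, was 3.10-fold higher in IL-3 mature cells (adjusted p = 4.82e-06). Between cytokines, 7 of the 12 were called in immature cells (58.3%, background 13.3%), all higher with TSLP. In mature cells 5 were called (41.7%, background 24.3%), 4 of them higher. Without that library 8 were higher and 1 was lower in immature cells, and 2 and 1 in mature cells. Tec was the exception, 2.60-fold lower with TSLP in mature cells (178 ± 28.9 against 463 ± 9.16 CPM, adjusted p = 0.000875).

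Of 17 tested adaptors and exchange factors, 11 were called in IL-3 (64.7%, background 46.2%) and 4 in TSLP cultures (23.5%, background 25.1%), all higher in mature cells. Both counts were the same without TSLP mature library 1. Lat2 (NTAL), a scaffold related to LAT in function, averaged 530.2 ± 112 CPM in IL-3 immature and 1517 ± 115 CPM in IL-3 mature cells (log2 -1.52, adjusted p = 1.13e-05). It was 1.68-fold higher in mature cells of the TSLP cultures (adjusted p = 0.00968). Gab2, which links Fyn to PI3 kinase, was 2.51-fold (adjusted p = 3.89e-05) and 1.67-fold (adjusted p = 0.00987) higher in mature cells. Fyb and Skap2, which pair in an adhesion complex, were 1.94-fold and 2.30-fold lower with TSLP in mature cells (adjusted p = 0.00144 and 0.00284).

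Of the 20 tested genes for phospholipase C, PI3 kinase and protein kinase C, 8 were higher in mature and 2 in immature cells of the IL-3 cultures. In the TSLP cultures 6 and 2 were. The shares called were 50% with IL-3, near the background of 46.2%, and 40.0% with TSLP (background 25.1%). The TSLP counts were 8 and 2 when TSLP mature library 1 was left out. Pik3cd, the leukocyte PI3 kinase subunit p110δ, averaged 139 ± 9.54 CPM in the immature and 412 ± 40.6 CPM in the mature cells of IL-3 cultures, and 304 ± 26.4 and 594 ± 41.4 CPM with TSLP. Like Syk, it was called in both stage comparisons (log2 -1.57 and -0.97) and was higher with TSLP in immature cells (log2 1.13, adjusted p = 0.000402). Prkcb was the opposite case, 1.89-fold higher in TSLP immature than in TSLP mature cells (adjusted p = 0.00669). Plcg1, which hydrolyses phosphoinositide for calcium release, was 2.26-fold higher in TSLP mature cells (adjusted p = 0.00216).

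Of 13 tested phosphatases and ubiquitin ligases, 6 were higher in mature and 2 in immature cells of the IL-3 cultures, among the latter Cbl, the ligase that tags activated Syk and FcεRI (log2 1.34, adjusted p = 0.00206). With TSLP 1 was higher in each stage, or 15.4% called (under the background of 25.1%), against 61.5% with IL-3 (background 46.2%). The calcium entry list (18 tested) gave 4 and 2 calls in IL-3 (33.3%) and 4 and 0 in TSLP cultures (22.2%), both under the background of 46.2% and 25.1%. The Ras and MAP kinase list (18 tested) gave 7 and 1 (44.4%), then 3 and 0 (16.7%), also under the background. Of 18 tested exocytosis genes, 10 were higher in mature and 2 in immature cells of the IL-3 cultures (66.7% called, background 46.2%). In the TSLP cultures 3 and 1 were (22.2% called, under the background of 25.1%). When TSLP mature library 1 was left out, the TSLP counts higher in mature and in immature cells were 4 and 1 for phosphatases and ligases, 1 and 0 for calcium entry, 4 and 1 for Ras and MAP kinases and 2 and 3 for exocytosis. Stx11, a fusion protein of secretory granules in lymphocytes, was 9.44-fold and 4.33-fold higher in mature cells of the IL-3 and TSLP cultures (adjusted p = 1.60e-07 and 1.21e-05). Rab27b, a granule-docking GTPase, was 4.16-fold higher in TSLP immature than in TSLP mature cells (adjusted p = 0.000327) and 4.51-fold lower with TSLP in mature cells (adjusted p = 0.000626). Both folds rest on low levels in the TSLP mature libraries (3.24, 1.42 and 6.77 CPM). The means were 15.7 CPM in TSLP immature and 17.0 CPM in IL-3 mature cells.

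**Figure D5:**
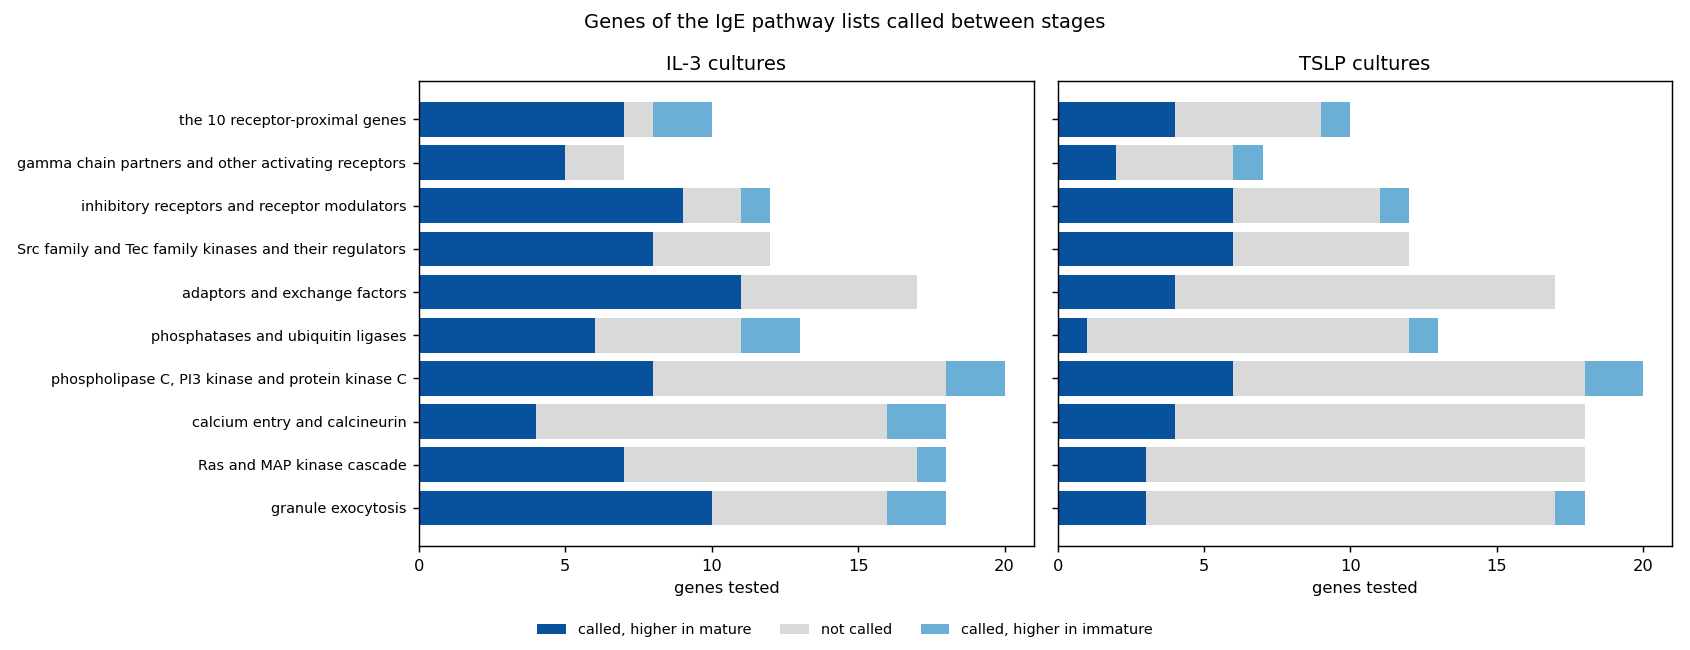
Number of tested genes (horizontal axis) of the 10 receptor-proximal genes and of 9 wider role lists that were called higher in mature cells (dark blue), not called (grey) or called higher in immature cells (light blue), in IL-3 cultures (left) and TSLP cultures (right). Most calls of each list in IL-3 cultures were higher in mature cells. Fewer genes were called in TSLP cultures, 41 of 135 against 78 of 135 over the wider lists (30.4% against 57.8%). Over all tested genes the share called was also lower, 25.1% in TSLP against 46.2% in IL-3 cultures.

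Between cytokines, 27 of the 135 wider genes were called in immature cells (20%, background 13.3%), 23 of them higher with TSLP, and 29 in mature cells (21.5%, background 24.3%), 17 of them higher. The immature count fell to 14 without IL-3 immature library 1 and to 15, 13 and 13 without TSLP immature library 1, 2 and 3. The mature count fell to 14 and 16 without IL-3 mature library 2 and 3 and to 16 without TSLP mature library 3. Leaving out TSLP mature library 1 gave counts of 39 in immature cells (32 higher and 7 lower with TSLP) and 36 in mature cells (13 higher and 23 lower). Over all tested genes the counts also rose, from 1443 to 2243 in immature and from 2634 to 2968 in mature cells. Fitted on the compared groups alone, 18 were called in mature cells, 7 of 132 tested being higher with TSLP and 11 lower. In mature cells the balance of higher and lower calls thus turned with the fit. It also turned in every run with 1 library left out, except that without IL-3 mature library 1 (12 higher and 11 lower). Libraries outside the comparison were among them, with 9 higher and 13 lower without IL-3 immature library 2. Over all tested genes the balance in mature cells also turned without TSLP mature library 1, from 1345 higher and 1289 lower to 1146 and 1822. In that run the turn was thus not particular to the wider pathway genes.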

How the data were processed

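The series holds 12 RNA libraries of basophils grown from mouse bone marrow, in 4 groups of 3 by cytokine (IL-3 or TSLP) and stage (immature or mature), grouped by the labels. The authors deposited 1 table of raw read counts by gene symbol, with each library in its own column. The study's methods describe oligo(dT) capture, amplification of the whole cDNA by PCR, sequencing on an Ion Proton, trimming with Cutadapt and alignment by Bowtie2 against reference RNA of GRCm38, followed by counting of reads for each gene. The processing notes of the labels also name GRCm39 and mm10. The handling of strand, of reads that match several genes and of molecular identifiers is not given in the sources used here, so counts of overlapping or near-identical genes are uncertain and reads are not independent molecules. An unnamed row, equal to the sum of all others and thus 50% of each column, was left out. All columns were mapped to a sample.

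Genes were kept by filterByExpr (minimum count 10, minimum total 15), which left 10861 genes with 99.5% to 99.7% of counts. Libraries were scaled by TMM and fitted together, with 1 mean per group and no block, by the quasi-likelihood test of edgeR 4.0.16 in R 4.3.3 with Benjamini-Hochberg adjustment over all tested genes. Contrasts were immature minus mature in each culture, TSLP minus IL-3 at each stage, and their interaction. The common biological coefficient of variation was 20.4%. The scripts were tested on simulated data. Within-library count ratios were compared by exact permutation (scipy 1.17.1). The pairing of replicate numbers was checked by the correlation of deviations from group means, which exceeded 0.1 in 7 of 18 pairs of equal number (-0.08 to 0.39), so the numbers were not used as pairs. Alternatives were other scalings and filters, DESeq2 1.42.0, a fit on the compared groups alone, a replicate block, ribosomal RNA rows left out and each library left out. The runs without all 3 ribosomal RNA rows were added after seeing the data. Replicates of a group differed by more than sampling noise (chi-square per degree of freedom 2.08 to 51.4), and none was merged.

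All members were named in every comparison. From each wider list, up to 3 called genes a comparison with the largest log2 difference and a mean of at least 10 CPM could be named, and for each receptor subunit the 5 genes with the highest r. Members and lists were chosen with earlier results of these data known. Gene positions are from GENCODE on GRCm38, and upstream sequences from RefSeq on GRCm38.p6.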

Additional observations from a re-analysis of the deposited data

Results flagged for a closer look

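The stage difference itself differed between cultures for 10 of 135 tested genes of the wider pathway lists (7.41%, against 4.19% of all tested genes), by the interaction test of edgeR (Benjamini-Hochberg adjustment over 10861 genes, 3 libraries a group). The values below are the log2 stage difference (immature minus mature) in TSLP cultures minus that in IL-3 cultures. The count was 6 without IL-3 immature library 2 or IL-3 mature library 2, and 18 without TSLP mature library 1, where each of the 10 genes kept its call. Without TSLP mature library 1 the count over all tested genes also rose, from 455 to 723. None of the 10 receptor-proximal genes was called.

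Among receptors, Clec4e gave 1.86 (SE 0.29, adjusted p = 0.00203), and its stage differences had opposite signs, -1.14 in IL-3 and 0.72 in TSLP cultures. Pirb gave 1.91 (adjusted p = 0.00257), Lilrb4a 1.57 (adjusted p = 0.00179) and Cd300lf 2.18 (adjusted p = 0.000335). These inhibitory receptors were higher in mature cells of both cultures, with a larger difference with IL-3 (Cd300lf -3.42 against -1.24). Milr1, an inhibitory receptor also called allergin-1, gave 1.07 (adjusted p = 0.0477).

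Among signalling genes, Pag1 gave 2.15 (adjusted p = 0.00436), Prkcq 1.52 (adjusted p = 0.0144), Inpp4b 1.64 (adjusted p = 0.0234) and Cplx2 1.69 (adjusted p = 0.0463). All 4 were called lower in immature cells of the IL-3 cultures. With TSLP, Pag1 (log2 -0.86, adjusted p = 0.0231) and Prkcq (-0.69, adjusted p = 0.033) were also called lower, whereas Inpp4b gave -0.64 (adjusted p = 0.0919) and Cplx2 -0.94 (adjusted p = 0.0552). Ubash3a gave -2.97 (adjusted p = 0.0463), with stage differences of 3.60 in IL-3 and 0.62 in TSLP cultures. Its mean was 6.59 CPM in IL-3 immature, 0.509 CPM in IL-3 mature, 10.9 CPM in TSLP immature and 7.16 CPM in TSLP mature cells, so the 3.60 rests on the low level in IL-3 mature libraries. It fell outside the rule for named genes, which asks for a mean of 10 CPM over the 12 libraries, and is given because its interaction was called.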

How the results depend on the processing

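Groups of 3 libraries and 98 to 6592 counts per gene set the precision. For genes that were not called, the 95% intervals given hold the differences that these libraries leave possible. The number of the 10 genes called in the TSLP stage comparison was 0 with no filter on low counts. In the TSLP against IL-3 comparison of mature cells it was 1 with no filter and 1 in a fit on the compared groups alone, where 18 of the wider genes were called. The interaction called 16 wider genes by DESeq2. The cause was not tested. With each library left out in turn, the number of the 10 genes called ran from 6 to 9 (IL-3 stage), 0 to 6 (TSLP stage), 0 to 4 (cytokine, mature), 1 to 3 (cytokine, immature) and 0 to 2 (interaction). For the wider lists it ran from 62 to 85, 21 to 46, 14 to 36, 13 to 39 and 6 to 18. The log2 ratio by cytokine ran from 0.47 to 0.64 for Lyn to Fyn, -0.57 to -0.40 for Inpp5d to Syk, -0.24 to 0.056 for Ms4a2 to Fcer1a and -0.28 to -0.0028 for Fcer1g to Fcer1a. By stage it ran from -0.33 to -0.16, -0.041 to 0.13, 0.04 to 0.33 and -0.98 to -0.70, in the same order.

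Replicate numbers did not pair the samples: 8 of 12 libraries correlated best with their own number, which is a hint from the data and not the design. With the replicate block 9, 5, 2, 3 and 0 of the 10 genes were called, the addition being Inpp5d between cytokines in immature cells (0.49, edgeR adjusted p = 0.0435). The wider lists gave 81, 44, 32, 34 and 14 calls. A filter of 10 CPM in 3 libraries moved the median of all genes by 0.11 in both stage comparisons (0.113 and 0.105), and relative to it no direction of a called gene among the 10 changed. Over the log2 differences of the 10 genes and all alternatives, 936 values kept their direction and side of the threshold, 80 lost and 13 gained a call, and 11 uncalled values changed sign, each in a run with 1 library left out.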

Other observations

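Of the 18 tested genes of the calcium entry list, 2 were called between cytokines in immature cells (11.1%, against 13.3% of all tested genes) and 5 in mature cells (27.8%, against 24.3%). Kcnn4, a calcium-activated potassium channel, averaged 97.0 ± 17.2 CPM in TSLP mature and 48.1 ± 14.7 CPM in IL-3 mature cells (SD, n = 3; log2 1.01, edgeR adjusted p = 0.00374). Orai2, a pore subunit of store-operated calcium channels, was 1.50-fold higher with TSLP in mature cells (edgeR adjusted p = 0.0403). Trpm4, a calcium-activated cation channel, was 2.18-fold higher with TSLP in immature cells (mean 26.6 ± 4.39 CPM with TSLP, SD, n = 3, edgeR adjusted p = 0.00246). Stim2, a sensor of calcium stores, was 1.57-fold lower with TSLP in immature cells (edgeR adjusted p = 0.0294).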
